A study of Mus musculus with 3 samples.

Results

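The 9 genes described here, mt-Nd1, mt-Nd2, mt-Nd3, mt-Nd4, mt-Cytb, mt-Co1, mt-Co2, mt-Co3 and mt-Atp6, are read from the mitochondrial genome and code for subunits of the respiratory chain. They were listed by symbol, all 9 were found among the 32285 features of each file, and they make up 9 of the 13 mt- protein genes counted there. The members were chosen by their combined share of the counts, which was already known to be higher in the p38KO library, so that difference is given as a description, with no test.

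Live CD45+ cells, which are leukocytes of the host, were sorted from primary 4T1 mammary tumors, a carcinoma of BALB/c mice that grows in the fat pad of its own strain. Female BALB/c mice of 6 to 8 weeks received 200000 tumor cells and were killed on day 14, and the tumors of 3 mice were pooled into 1 library for each group. In the vehicle group the implanted cells were 4T1-luc with intact p38α and the mice received DPBS for 10 days from day 4. In the p38i group the same cells were implanted and the mice received the p38 inhibitor LY2228820 by daily gavage at 30 mg/kg over the same days. In the p38KO group the tumor cells were 4T1 clone H9, a single CRISPR-Cas9 clone that lacks p38α, and no treatment is listed. The gene was inactivated in the implanted tumor cells only, and the sorted leukocytes carried an intact copy in all groups. With 1 library per group, treatment, clone, sort, capture and sequencing cannot be told apart, and no difference between libraries has a replicate check.

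The mitochondrial genome is a small circle that is transcribed from each strand as 1 long RNA and then cut into separate messages, mostly at the transfer RNAs that lie between them. The Nd genes code for subunits of complex I, which takes electrons from NADH. Cytb codes for the b-type cytochrome of complex III, the Co genes code for the catalytic core of complex IV, where oxygen is reduced, and Atp6 codes for part of the proton channel of ATP synthase, complex V. The remaining subunits are coded in the nucleus, translated in the cytosol and imported. Neutrophils depend largely on glycolysis and carry few mitochondria, whereas macrophages and lymphocytes rely more on respiration. In single-cell work a high mitochondrial share also marks damaged cells, since cytosolic RNA leaks out while RNA inside mitochondria is retained, and the same genes are therefore used both as biology and as a filter.

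All 9 members lie on the plus strand of chromosome M (GRCm38, GENCODE M21), where each is a single exon with almost no untranslated sequence, from mt-Nd1 at chrM:2751-3707 to mt-Cytb at chrM:14145-15288. The order along the strand is mt-Nd1, mt-Nd2 (3914-4951), mt-Co1 (5328-6872), mt-Co2 (7013-7696), mt-Atp6 (7927-8607), mt-Co3 (8607-9390), mt-Nd3 (9459-9806), mt-Nd4 (10167-11544) and mt-Cytb. The assay captures RNA by its poly(A) tail and counts tags near the 3′ end, so the last bases of each message decide where the counts come from. The ends of 5 members are shown, the 3 whose annotated sequence stops 1 base after the last whole codon and the pair with the lowest and the highest p38KO ratio in neutrophils. The last 30 bases are written 5′ to 3′ from the GENCODE M21 transcripts, with the stop codon, or the single base that the poly(A) tail completes to a stop codon, in capitals.
mt-Co3, chrM:9361-9390: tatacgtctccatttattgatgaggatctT
mt-Nd4, chrM:11515-11544: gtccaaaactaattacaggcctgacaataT
mt-Cytb, chrM:15259-15288: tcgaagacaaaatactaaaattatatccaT
mt-Co1, chrM:6843-6872: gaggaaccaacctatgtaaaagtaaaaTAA
mt-Nd3, chrM:9777-9806: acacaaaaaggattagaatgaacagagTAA

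Several members have near-identical copies in the nuclear genome, which limits how exactly a read can be placed. Windows of 90 bases were compared with all annotated nuclear transcripts. For mt-Co2, mt-Atp6, mt-Co3 and mt-Nd3 between 97.7% and 99.9% of the windows also occurred in a pseudogene, and for mt-Co1 33.4% did, including 100% of the last 300 windows. Most of these copies stand in a row on the minus strand of chromosome 1, from Gm28439 (starting at 24611535) to Gm29216 (ending at 24616197). For mt-Nd4 the shared part was 61.1% of the windows but 0% of the last 300, for mt-Nd2 it was 4.21%, and mt-Nd1 and mt-Cytb shared 0%. None of the pseudogenes was among the counted features. How the reads shared with a copy were counted was not checked in any library. Counts of mt-Co1, mt-Co2, mt-Co3, mt-Atp6 and mt-Nd3 are uncertain to the extent that reads could be assigned to a copy. In contrast, mt-Nd1, mt-Cytb and the end of mt-Nd4 are free of an annotated copy.

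Cells with at least 1500 UMIs (unique molecular identifiers, 1 per captured RNA molecule), at least 300 genes and at most 20% of UMIs on mt- genes were kept, which left 3820 vehicle, 4793 p38i and 3859 p38KO cells with 20795195, 24210342 and 24374173 UMIs. Ptprc, which codes for CD45, stood at 1005, 942 and 847 CPM (UMIs of a gene per 1000000 UMIs of the cells summed). Mapk14, which codes for p38α, stood at 33.7, 42.1 and 39.1 CPM, a level in host cells that does not check the knockout of the tumor cells. Epithelial keratin and Epcam transcripts, 4 of 4 detected, summed to 10.5, 6.86 and 30.4 CPM. The libraries shared 5 to 9 barcodes in pairs, and doublets were not called. Intervals given below are exact 95% binomial intervals (Clopper-Pearson, or the conditional form for a ratio of 2 counts). They cover counting error only, and cells, not molecules, are the larger source of variation.

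In the kept cells the 9 members took 2.16% of UMIs in vehicle (interval 2.16 to 2.17), 2.17% in p38i (2.16 to 2.17) and 3.31% in p38KO (3.31 to 3.32). The vehicle and p38i libraries were within counting error of each other, with a log2 ratio of 0.00 (-0.00 to 0.01), and p38KO stood 0.62 above vehicle (0.61 to 0.62), or 1.53-fold. Without the 20% limit the shares were 2.31%, 2.24% and 3.75%. The median cell had 0.668% in vehicle, 0.961% in p38i and 2.07% in p38KO.

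Each member was higher in p38KO than in vehicle, and the members of complexes I and III stood further above it than those of complexes IV and V. This order holds for the listed members only. Outside the list, the complex I genes mt-Nd4l, mt-Nd5 and mt-Nd6 had log2 ratios of 0.70, 0.60 and 0.46. Among the complex I genes, mt-Nd1 made up 0.142% of UMIs in vehicle, 0.133% in p38i and 0.246% in p38KO. For mt-Nd2 the shares were 0.069%, 0.0679% and 0.124%, for mt-Nd3 0.0307%, 0.0274% and 0.0582%, and for mt-Nd4 0.0967%, 0.101% and 0.173%. The log2 ratios of p38KO to vehicle were 0.80, 0.85, 0.93 and 0.84 in that order. mt-Cytb of complex III made up 0.185%, 0.184% and 0.322%, a log2 ratio of 0.80 (0.78 to 0.82).

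The catalytic subunits of complex IV differed among themselves. mt-Co1 made up 0.363%, 0.37% and 0.481% of UMIs and had the lowest log2 ratio of p38KO to vehicle, 0.41 (0.39 to 0.42). mt-Co2 made up 0.366%, 0.376% and 0.532% (log2 ratio 0.54), and mt-Co3 0.527%, 0.521% and 0.796% (log2 ratio 0.59). mt-Atp6 of complex V made up 0.383%, 0.385% and 0.582%, a log2 ratio of 0.60 (0.59 to 0.61). A gene was called higher where its log2 ratio of CPM was at least 0.5, its counting interval was above 0 and it had at least 20 UMIs over both libraries. By that rule of size 8 of the 9 members were called in p38KO over all kept cells, against 17.1% of all 13349 genes compared, and mt-Co1 was the exception. The median gene stood 0.17 (log2) above vehicle in this comparison, and the median member 0.80. With libraries scaled by median ratios in place of all UMIs, which removes that common shift, 5 of the 9 members and 10% of genes were called.

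Per kilobase of message, the order of the members was the same in each of the 3 libraries. mt-Co3 was highest, at 6724 CPM per kilobase in vehicle and 10151 in p38KO, followed by mt-Atp6 (5629 and 8545) and mt-Co2 (5344 and 7781). mt-Co1 stood at 2348 and 3116, mt-Cytb at 1614 and 2814 and mt-Nd1 at 1484 and 2575. mt-Nd3 (881 and 1674), mt-Nd4 (702 and 1254) and mt-Nd2 (665 and 1195) were lowest. Since tags fall near the 3′ end, the number of tags does not grow with the length of a message, and dividing by length raises short messages. The order therefore depends on the division. By share of UMIs mt-Nd3, of 348 bases, was the lowest member, with 0.0307% in vehicle against 0.069% for mt-Nd2 and 0.0967% for mt-Nd4. The 4 mt- protein genes outside the list were lower than each member, with at most 0.021% of UMIs in any library (mt-Nd5). mt-Atp8 and mt-Nd4l share a message with mt-Atp6 and mt-Nd4, and mt-Nd6 is the single protein gene of the minus strand.

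To separate the kinds of cell, raw UMIs of a few defining genes were used as gates. Csf3r plus Cxcr2 (receptors for G-CSF and for chemokines that draw neutrophils) marked neutrophils, Ly6c2 plus Fn1 monocytes and C1qa, a complement component, macrophages. Cd3e, part of the T cell receptor complex, marked T cells, Ncr1, an activating receptor, NK cells, and Flt3, a growth factor receptor, dendritic cells (DC). Marker lists that the gates did not use followed the gates. All 6 neutrophil markers (S100a8, S100a9 and others) were detected in gated neutrophils, where they summed to 190387, 214234 and 147797 CPM in vehicle, p38i and p38KO. All 6 macrophage markers summed to 19084, 20476 and 28655 CPM in gated macrophages, and all 6 T cell markers to between 5370 and 5901 CPM in gated T cells. Of the NK markers 5 of 6 were detected, and Klra8 was at 0 in each library. They summed to 10387, 8493 and 6180 CPM in gated NK cells, lowest in p38KO. Cells that met several gates made up 11.7%, 9.37% and 15.1% of kept cells and those that met none 16.6%, 16.9% and 11.8%, and both were carried as classes of their own.

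Gated neutrophils had the lowest member share of the 6 classes in every library and, as a ratio, the widest gap between p38KO and vehicle, while in percentage points the gap was wider in NK cells. Their members took 0.612% of UMIs in vehicle (0.605 to 0.618), 0.753% in p38i (0.746 to 0.76) and 1.69% in p38KO (1.68 to 1.71), from 1719, 2026 and 1479 cells. Gated NK cells, 83, 93 and 96 of them, had 2.59%, 2.8% and 4.03%. Gated macrophages, 153, 168 and 457, had 3.41%, 3.32% and 4.08%. In gated T cells the shares were 2.84%, 2.74% and 3.28%, in gated monocytes 2.52%, 2.53% and 2.89%, and in gated DC 3.42%, 2.93% and 3.41%. Among cells that met several gates they were 2.58%, 2.51% and 3.51%, and among cells that met none 1.75%, 1.85% and 3.36%. The p38KO library was thus highest in neutrophils, NK cells, macrophages, T cells and monocytes, and level with vehicle in DC.

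**Figure D1:**
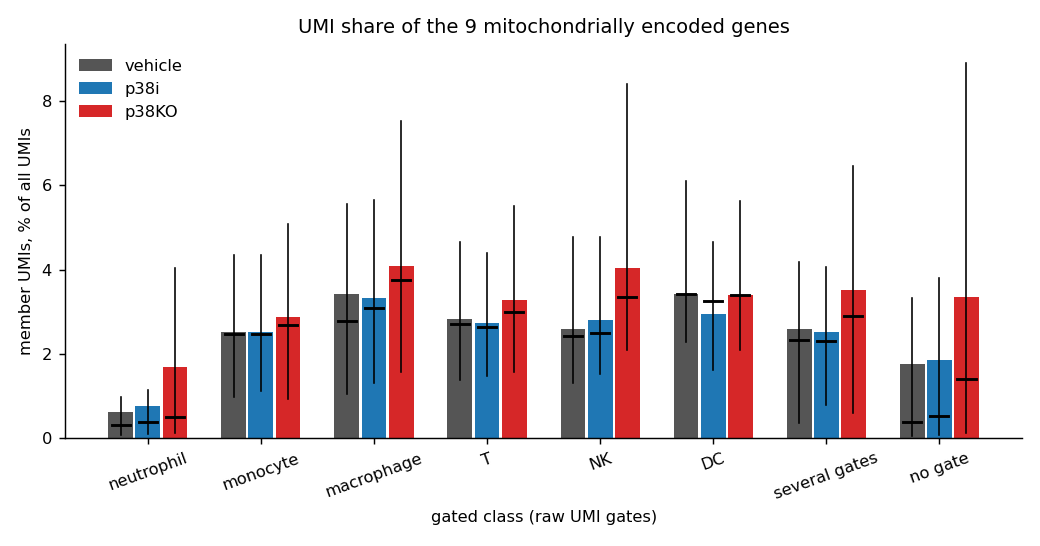
Share of UMIs on the 9 members (y axis, percent of all UMIs) by gated class (x axis) in the vehicle, p38i and p38KO libraries; bars give the summed UMIs of the class, thick ticks the median cell and thin lines the range from the 10th to the 90th percentile of cells. The p38KO bar stands at 1.69% in neutrophils against 0.612% in vehicle, and the 3 DC bars lie between 2.93% and 3.42%.

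The difference of 1.15 percentage points between the p38KO and vehicle libraries was split into a part from cell mix and a part from the level within classes. Each class was weighted by its share of the library's UMIs, the mix part took the change in weight at the mean level, and the within-class part took the change in level at the mean weight. The mix part was 0.332 points (28.8% of the difference) and the within-class part 0.821 points (71.2%). Cells of several gates and of no gate are mixed classes, and a change of mix inside them counts as level. Among cells of several gates, 33 of 448 in vehicle and 92 of 583 in p38KO met the neutrophil and macrophage gates and no other. A further 16 and 87 met these and the monocyte gate. The monocyte and T gates, and no other, were met by 155 and 91. The within-class part is therefore not a measure of change within cell types alone. With the vehicle mix and the p38KO levels the share would be 3.01%, and with the p38KO mix and the vehicle levels 2.52%. Over 10 alternative settings the mix part stayed between 0.249 and 0.418 points and the within-class part between 0.735 and 1.06, or 63.8% to 81% of the difference.

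The largest class term of the mix part was that of macrophages. Their weight was 13.4% of UMIs in vehicle and 28.4% in p38KO, a term of 0.561 points. Each term is the change in weight times the class level, so its sign follows the weight alone. Only the sum of the terms can be read as the part of mix. Neutrophils, at 0.612% and 1.69%, lay below the library shares of 2.16% and 3.31%. Their negative term therefore does not mean that their lower weight reduced the share. The lower weights of monocytes (15.1% against 9.62%), neutrophils (24.7% against 15.3%) and cells that met no gate (10.4% against 5.87%) entered with -0.148, -0.108 and -0.117 points. Cells that met several gates, with weights of 20.5% and 24.6%, gave 0.128 points. The within-class part was above 0 in all classes but DC. Neutrophils gave 0.216 points, cells that met several gates 0.211, macrophages 0.14 and cells that met no gate 0.131. Monocytes gave 0.045, T cells 0.0442 and NK cells 0.0343 points, and DC gave -0.000624. Neutrophils thus held 26.3% of the within-class part, with weights of 24.7% of UMIs in vehicle and 15.3% in p38KO.

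**Figure D2:**
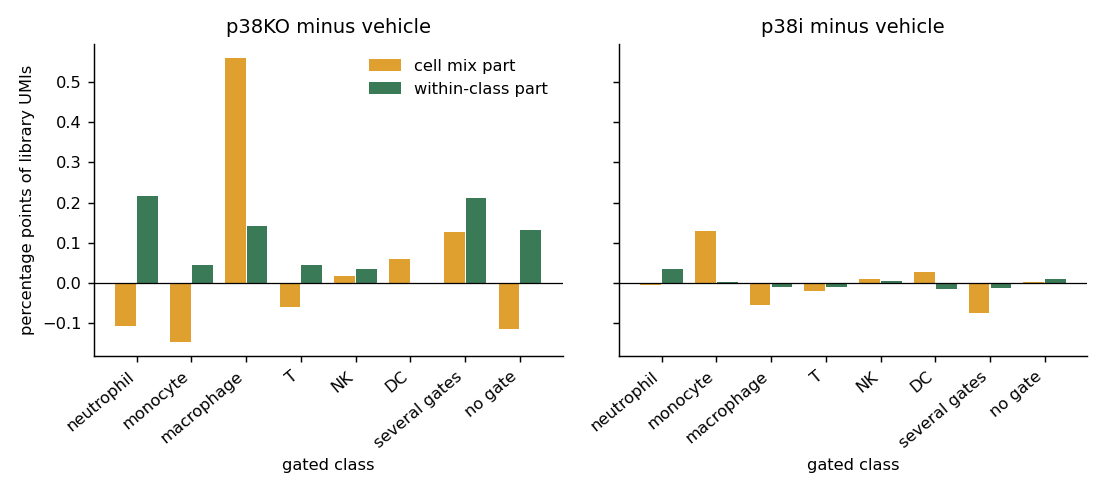
Mix and within-class parts (y axis, percentage points of library UMIs) of the difference from vehicle by gated class (x axis), for p38KO on the left and p38i on the right. In p38KO the mix part of macrophages reaches 0.561 points and the largest within-class part, 0.216 points, is that of neutrophils, while the p38i parts of neutrophils are -0.00604 and 0.0343.

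In gated neutrophils all 9 members were called higher in p38KO, against 9.65% of the 8266 genes compared, and the median member stood 1.85 (log2) above vehicle. Among the 9 members, those of complexes I and III were furthest above it. Outside the list, the complex I genes mt-Nd5 (1.05) and mt-Nd6 (1.09, from 22 and 34 UMIs) stood below every member but mt-Co1. The complex I gene mt-Nd4l stood at 1.83. mt-Nd3 made up 0.0053% of neutrophil UMIs in vehicle, 0.00595% in p38i and 0.0323% in p38KO, a log2 ratio of p38KO to vehicle of 2.61 (2.42 to 2.80). For mt-Nd2 the shares were 0.013%, 0.0156% and 0.0716%, with a ratio of 2.46 (2.33 to 2.58), and for mt-Nd1 0.0245%, 0.0282% and 0.118%, with a ratio of 2.26 (2.17 to 2.35). mt-Nd4 had a ratio of 1.85 (1.76 to 1.94) and mt-Cytb of complex III one of 2.09 (2.02 to 2.15). The members of complexes IV and V had lower ratios than the other members: mt-Atp6 1.54, mt-Co3 1.51 and mt-Co2 1.34. mt-Co1 was lowest, with 0.154% of UMIs in vehicle, 0.198% in p38i and 0.231% in p38KO and a ratio of 0.59 (0.54 to 0.63).

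The members free of an annotated nuclear copy at their ends, mt-Nd1, mt-Nd4 and mt-Cytb, all had ratios of at least 1.85 in neutrophils. Outside the list, mt-Nd5, mt-Nd6 and mt-Atp8 also had 0% of their last windows in a copy. Their ratios were lower, at 1.05, 1.09 and 1.26, so a free end did not always go with a high ratio. Among the members with a copy the ratios ran from 0.59 for mt-Co1 to 2.61 for mt-Nd3. The lowest were mt-Co1 (0.59), mt-Co2 (1.34), mt-Co3 (1.51) and mt-Atp6 (1.54), each with at least 99% of its last windows in a copy. They are also all the members of complexes IV and V, so for them complex and copy cannot be told apart. In complex I, mt-Nd3 (97.7% of windows in a copy) had 2.61 and mt-Nd2 (13.3% of its last windows) 2.46.

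A minority of the gated neutrophils held most of the p38KO member UMIs. The median gated neutrophil had 0.317% in vehicle, 0.379% in p38i and 0.498% in p38KO, while the 90th percentile was 0.981%, 1.13% and 4.04%. Neutrophils with at least 4% made up 1.4% of the class in vehicle (0.897 to 2.07), 2.02% in p38i (1.46 to 2.74) and 10.1% in p38KO (8.65 to 11.8). The limit of 4% was set after the values were seen. These were 24, 41 and 150 cells, and in p38KO they held 57.8% of the class's member UMIs, against 15.4% in vehicle and 20.5% in p38i. With each cell thinned to 1500 UMIs the share of such cells was 1.51%, 2.17% and 10.6%. Leaving out cells by their member share must lower the ratio of the library that has more of them, so the value without them is a description of the spread. The log2 ratio of p38KO to vehicle for the 9 members summed was then 0.62 in place of 1.47. In the neutrophils with under 1%, which were 90.2%, 88% and 69.4% of the class, the members took 0.359%, 0.406% and 0.384% of UMIs. That set is cut by the member share itself, which holds its values close, so they do not show that most neutrophils were level. Over the whole class the 25th percentile was 0.16%, 0.196% and 0.239% and the 75th 0.565%, 0.663% and 1.29%.

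**Figure D3:**
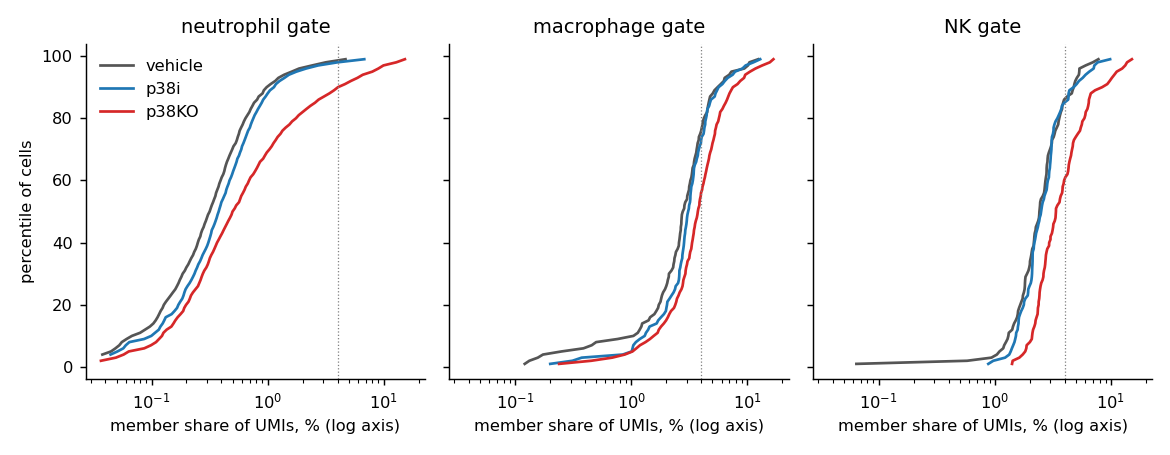
Percentile of cells (y axis) against the cell's own member share (x axis, percent of UMIs, log axis) for gated neutrophils, macrophages and NK cells of the 3 libraries; the dotted line marks 4%, cells without a member UMI are not drawn, and lines run from the 1st to the 99th percentile. In neutrophils the p38KO line parts from the others most in its upper part, with a 90th percentile of 4.04% against 0.981% in vehicle.

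The gate itself required Csf3r or Cxcr2 in every one of these cells, so only genes outside it were compared. S100a8, a calcium-binding alarmin that fills neutrophils, stood at 45797 CPM in the p38KO neutrophils with at least 4%, against 55818 in those with under 1%. It was also lower in such cells in vehicle (56722 against 74131) and in p38i (64706 against 86971). In p38KO, Cpa3, a protease of mast cells, stood at 150 CPM against 4.86, and C1qa of macrophages at 74.8 against 67.7. C1qa is capped in both sets, because a cell with at least 2 of its UMIs also met the macrophage gate and was not classed as a neutrophil. The C1qa values therefore cannot measure the macrophage RNA in these cells. The median depth was 2142.5 UMIs and 829.5 genes in the p38KO neutrophils with at least 4% and 2140.5 and 784.5 in those with under 1%. With cells that met a mast cell gate set apart, the log2 ratio of all gated neutrophils was 1.46. Over the whole class the median depth was 2515, 2254 and 2162 UMIs in vehicle, p38i and p38KO. Within each depth range the order of the libraries was the same. Neutrophils of 1500 to under 3000 UMIs had 0.487%, 0.604% and 1.44%, those of 3000 to under 6000 had 0.597%, 0.736% and 1.98%, and the 78, 112 and 29 cells of 6000 or more had 1.13%, 1.25% and 2.92%.

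Transcripts of other cells were also measured in gated neutrophils. The 6 macrophage markers, all detected, summed to 409 CPM in vehicle, 468 in p38i and 750 in p38KO, which was 2.14%, 2.29% and 2.62% of their level in gated macrophages. The 4 mast cell markers (Cpa3, Kit and others) stood at 6.81, 12 and 44.5 CPM, and T cell markers at 27.6, 31.7 and 33.5. The 6 monocyte markers, all detected, went the other way, with 776, 674 and 671 CPM, or 14.7%, 14.3% and 12.3% of their level in gated monocytes. Malat1, a nuclear RNA that gains share in damaged or stripped cells, took 3.74%, 3.45% and 3.36% of neutrophil UMIs, and Neat1, another nuclear RNA, 0.297%, 0.236% and 0.358%. In barcodes under 1500 UMIs, which were not kept, the members took 6.89%, 3.16% and 15.5% of the summed UMIs. The median such barcode had 0.38%, 0.305% and 1.33%. The part of damaged cells or of free RNA in the neutrophil difference was not tested.

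NK cells were the other gated class in which all 9 members were called higher in p38KO, against 4.81% of 6112 genes. The median member stood 0.84 above vehicle. Again the members of complexes I and III were higher (0.84 to 0.89) than those of complexes IV and V (0.52 to 0.58). mt-Nd4 made up 0.109% of NK UMIs in vehicle, 0.134% in p38i and 0.201% in p38KO, and mt-Atp6 0.504%, 0.532% and 0.722%. NK cells with at least 4% were 11 of 83 in vehicle, 14 of 93 in p38i and 38 of 96 in p38KO. Mast cell markers in the NK gate stood at 47.4, 20.1 and 787 CPM. A gate for mast cells or basophils (at least 2 UMIs of Cpa3, a mast cell protease) held 3, 6 and 72 cells that met no other gate, and the 72 p38KO cells had a member share of 7.34%. With cells that met this gate and a B cell gate set apart, the NK share in p38KO was 3.73% and its log2 ratio to vehicle 0.52, and that of cells without a gate was 2.3% against 1.62%. Gating at a higher minimum or on thinned cells also gave lower NK ratios, 0.48 and 0.39, and a minimum of 1 UMI gave 0.75. The part of mast cells in the NK difference was not tested.

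In macrophages every member was above vehicle, by 0.19 for mt-Nd1 to 0.40 for mt-Nd3, and none reached the size of a call, against 7.8% of 10480 genes. The order by complex did not hold there, since mt-Atp6 (0.34) stood above mt-Nd1, mt-Nd2 (0.29) and mt-Cytb (0.25). The 20% limit removed 10% of gated macrophages in vehicle, 5.62% in p38i and 10% in p38KO, the highest of the 6 classes in each library. In T cells the ratios ran from 0.04 for mt-Co1 to 0.46 for mt-Cytb and none was called (8.7% of 9442 genes). In monocytes they ran from 0.00 for mt-Co1 to 0.62 for mt-Nd3, which was the 1 member called (8.19% of 9241 genes). In DC they ran from -0.08 for mt-Co1 to 0.28 for mt-Nd3, and none was called (5.85% of 7268 genes). mt-Co1 was thus the lowest member in neutrophils, monocytes, T cells and DC, but not in macrophages (mt-Nd1) or NK cells (mt-Atp6). The highest was mt-Nd3 in 4 of the 6 classes, mt-Cytb in T cells and mt-Nd4 in NK cells.

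**Figure D4:**
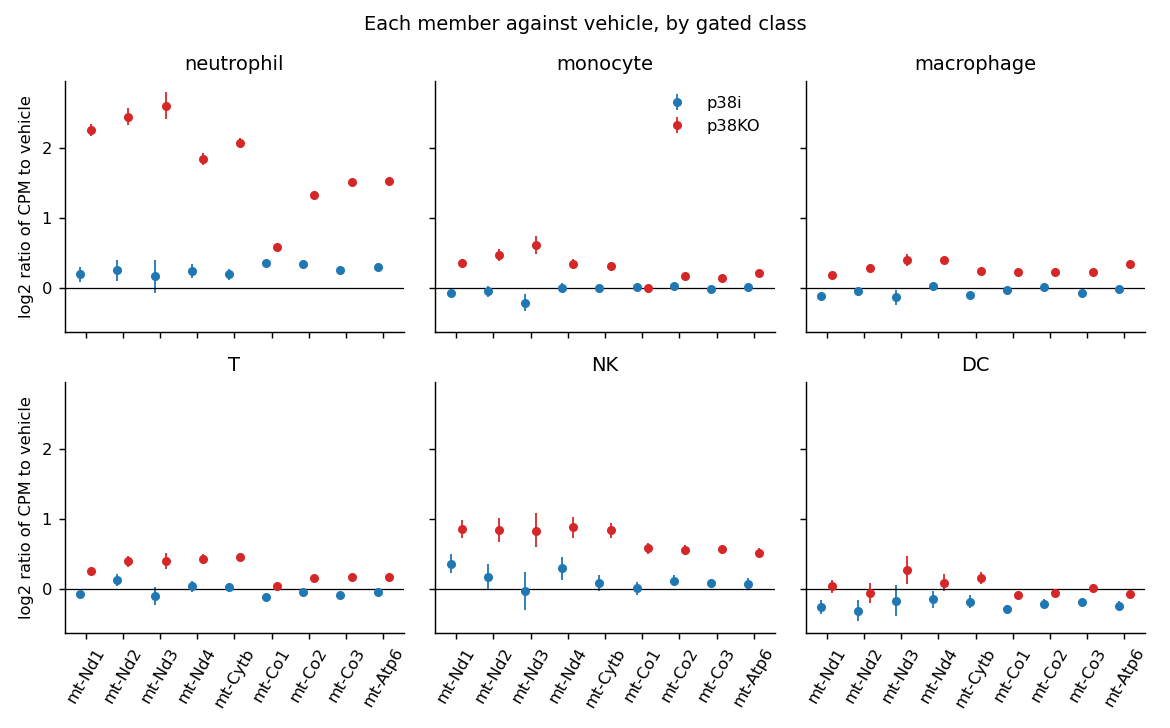
Log2 ratio of CPM to vehicle (y axis) for each member (x axis, in the order of complexes I, III, IV and V) in the 6 gated classes, for p38i and p38KO; bars are 95% counting intervals. In p38KO neutrophils the points run from 0.59 for mt-Co1 to 2.61 for mt-Nd3, and the p38i points lie between -0.31 and 0.37 in all panels.

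The makeup of the member UMIs changed along with their amount. In vehicle neutrophils mt-Co1 supplied 25.2% of all member UMIs and in p38i neutrophils 26.3%, but in p38KO neutrophils 13.6%. In the other 5 gated classes it supplied between 13.6% and 17.5% in any library. Within neutrophils of one library mt-Co1 was a larger part where the total was low. In vehicle it supplied 30.8% in cells with under 1%, 21.1% in cells with 1% to under 4% and 15% in cells with 4% and over. The p38i values were 33%, 22.9% and 17.3%. In p38KO they were 21.1%, 14% and 11.6%, so p38KO was lower at each level of the total. mt-Nd1 took the opposite course, with 2.5%, 2.01% and 4.35% of member UMIs in the neutrophils with under 1% and 6.84%, 5.7% and 7.7% in those with 4% and over. In barcodes under 1500 UMIs mt-Co1 supplied 14.2%, 15.9% and 11.2%.

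**Figure D5:**
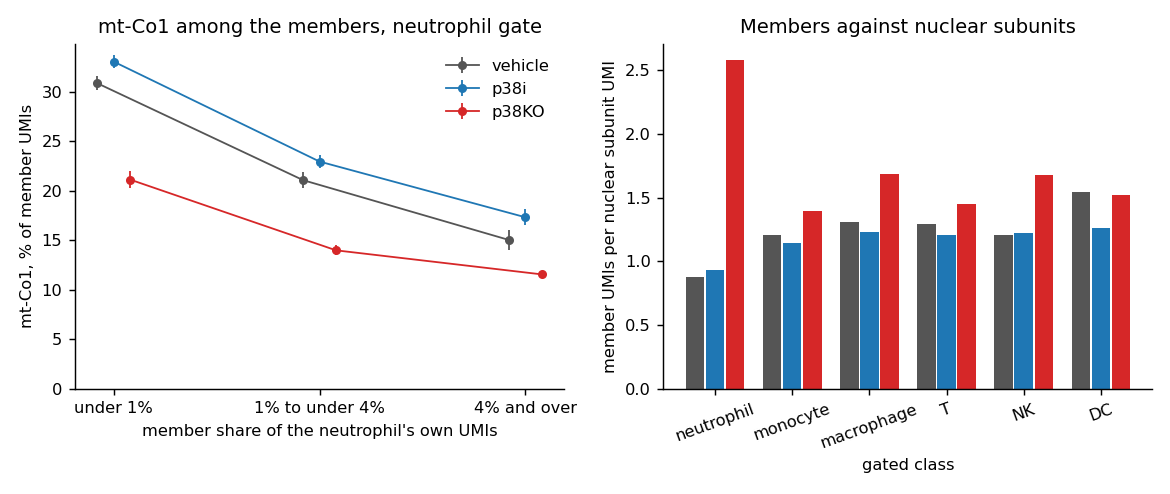
Left, mt-Co1 as a percent of member UMIs (y axis) in gated neutrophils by the cell's own member share (x axis), with 95% counting intervals; right, member UMIs per UMI of nuclear respiratory subunits (y axis) by gated class (x axis). Colors mark vehicle, p38i and p38KO as in the left legend; mt-Co1 goes from 30.8% to 15% across the 3 vehicle groups, and the p38KO neutrophil bar stands at 2.58.

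The nuclear genes for subunits of the same complexes stood closer to vehicle. Of 79 listed genes 77 were in the files. Over all kept cells 1 of the 77, Ndufc2 of complex I, was called higher in p38KO (17.1% of all genes), and the median was 0.22 beside 0.17 for all genes. In neutrophils 5 were called higher (9.65% of all genes) and 2 lower (3.06%), with a median of -0.03 beside 0.09. By complex, the neutrophil medians were 0.04 for 36 genes of complex I, 0.03 for 4 of complex II, -0.04 for 9 of complex III, -0.11 for 12 of complex IV and -0.07 for 16 of complex V. Their summed share was 0.7% of neutrophil UMIs in vehicle, 0.807% in p38i and 0.657% in p38KO. Members thus gave 0.874, 0.933 and 2.58 UMIs for each UMI of a nuclear subunit in neutrophils. In macrophages this was 1.31, 1.23 and 1.69, in NK cells 1.21, 1.22 and 1.68, in T cells 1.29, 1.21 and 1.45, in monocytes 1.21, 1.15 and 1.39, and in DC 1.55, 1.26 and 1.52.

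The first 6 nuclear subunits named here were picked for the largest absolute log2 ratios of p38KO to vehicle in their complex. They lie above the median of 0.22 for all 77 and are not typical of the list. Ndufc2, an accessory subunit of complex I, stood at 110 CPM in vehicle and 158 in p38KO over all kept cells (log2 ratio 0.52), and Ndufs8, which holds iron-sulfur clusters of complex I, at 75.6 and 103 (0.45). Sdhc, the membrane anchor of complex II, had a ratio of 0.39, Uqcr11 of complex III 0.34, Ndufa4, a subunit of complex IV, 0.39 and Atp5g2 of complex V 0.34. In NK cells 6 of the 77 were called higher (4.81% of all genes), with a median of 0.14 beside -0.04.

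Genes that copy and express the mitochondrial genome were also read. Of 17 such genes 4 were called higher in p38KO over all kept cells, and of 6 regulators of mitochondrial biogenesis with enough UMIs 2 were (17.1% of all genes). Twnk, the helicase that unwinds mitochondrial DNA, stood at 3.51 CPM in vehicle and 5.95 in p38KO (log2 ratio 0.76, interval 0.35 to 1.19). Tfb2m, which opens mitochondrial promoters, had a ratio of 0.58 and Tefm, an elongation factor, 0.57. The coactivators Ppargc1b and Pprc1 had 0.72 and 0.60. All of these were counted at under 11 CPM, and in neutrophils none of the 5 had enough UMIs to be compared. In vehicle and p38KO the 17 expression genes summed to 260 and 314 CPM over all kept cells, values that also carry the cell mix. By class the sums were 58.8 and 72.6 in neutrophils, 309 and 319 in monocytes and 408 and 400 in macrophages. In T cells they were 386 and 385, in NK cells 341 and 350 and in DC 296 and 353. The p38i sum was 270 CPM over all kept cells and 83.1 in neutrophils, above the 72.6 of p38KO neutrophils. In neutrophils 4 of 9 of these genes were called higher in p38i (6.51% of all genes), with a median of 0.69. In p38KO neutrophils 2 of 8 were called higher (9.65%), with a median of 0.12. Genes of the mitochondrial ribosome, 78 in all, had a median of 0.25 over all kept cells beside 0.17 for all genes, with 6 called higher (17.1% of all genes) and 1 lower. In neutrophils their median was 0.08 beside 0.09, with 6 of 67 called higher (9.65% of all genes) and 3 lower (3.06%).

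Other mt- genes and RNA measures stood as follows. Of the 4 mt- protein genes outside the list, all 4 were called higher in p38KO neutrophils (9.65% of all genes), with log2 ratios between 1.05 for mt-Nd5 and 1.83 for mt-Nd4l. Over all kept cells 2 of the 4 were called (17.1% of all genes), in macrophages 1 (7.8%) and in NK cells 1 (4.81%). In monocytes, T cells and DC 0 were called (8.19%, 8.7% and 5.85%). Over all kept cells Malat1 took 2.23%, 2.04% and 1.75% of UMIs and Neat1 0.136%, 0.103% and 0.103%. A list of 10 genes induced by tissue dissociation summed to 0.41%, 0.263% and 0.268%. These values over all kept cells also carry the cell mix. By gated class, p38KO Malat1 was above vehicle in macrophages (0.969% against 0.916%) and below it in the other classes. The dissociation list in p38KO was below vehicle in each gated class, but in neutrophils only by 0.776% against 0.786%. The part of RNA quality in the library difference was not tested.

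In the p38i library the members stayed near vehicle. No member was called higher over all kept cells (2.46% of genes) or in neutrophils (6.51%), monocytes (4.66%), macrophages (2.63%), T cells (4.67%), NK cells (3.12%) or DC (5.65%). In neutrophils each member was above vehicle, from 0.17 for mt-Nd3 (-0.07 to 0.40) to 0.37 for mt-Co1, which stood at the opposite ends in p38KO. The interval was above 0 for 8 of the 9, all but mt-Nd3, and the 9 summed had a log2 ratio of 0.30 (0.28 to 0.32). In DC each was below vehicle, from -0.31 for mt-Nd2 to -0.14 for mt-Nd4, with the interval below 0 for 8 of the 9. The 9 summed had -0.22 (-0.25 to -0.20) in DC, from 84 and 43 cells. Of the 77 nuclear subunit genes, 74 were above vehicle in p38i neutrophils and 11 were called higher (6.51% of all genes). Their median was 0.25 beside 0.08 for all genes. Over all kept cells 0 of the 77 were called higher (2.46% of all genes), with a median of 0.06 beside 0.02. The split of the p38i difference of 0.00423 points gave a mix part of 0.00546 and a within-class part of -0.00123. Set directly against p38i, p38KO was higher by 1.17 in neutrophils, 0.53 in NK cells, 0.30 in macrophages, 0.26 in T cells, 0.21 in DC and 0.19 in monocytes. The p38i and p38KO comparisons share the vehicle library.

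Over the 18 sums of 6 classes in 3 libraries, the 5 genes outside the mt- set whose log2(CPM + 1) was most like that of the 9 members summed were Clptm1l, Acsl5, Ndufs8, Ndufa12 and Gtf3c6, with Pearson's r between 0.93 and 0.94 among 3584 genes of at least 10 CPM in each sum. Acsl5 activates long-chain fatty acids, and Ndufs8 and Ndufa12 are subunits of complex I. The likeness rested on the low level of all of them in neutrophils: over the 15 sums without neutrophils r was between 0.41 and 0.71. The sums of a library share their cells, depth and preparation, and r is a description.

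Removing the 20% limit widened the contrast. The limit removes cells by their mt- share and took more of them from p38KO, so the widening follows from the filter and is a description. The limit took out 37 vehicle, 25 p38i and 114 p38KO cells, or 0.959% (0.676 to 1.32), 0.519% (0.336 to 0.765) and 2.87% (2.37 to 3.44). In p38KO these were 51 gated macrophages, 22 cells of several gates, 18 neutrophils, 17 cells without a gate and 6 others. The median removed cell had 32.8%, 28.5% and 33.4% of its UMIs on the members, with a 10th percentile of 21.1%, 20.8% and 22.1%. Without the limit the difference between p38KO and vehicle was 1.44 points, of which 0.387 were mix and 1.05 within-class.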

How the data were processed

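Single-cell RNA libraries of sorted CD45+ tumor leukocytes were read with a 10x Genomics 3′ protocol. The authors aligned the reads to mm10 and made UMI counts per gene and barcode with Cell Ranger (6.0.0 per the file headers), and the deposited filtered matrices hold these raw counts. The annotation release is not given in the sources used here. No column of another sample was used.

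Barcodes with at least 1500 UMIs, at least 300 genes and at most 20% of UMIs on mt- genes were kept, with and without the last limit. Doublets were not called or removed, and 4 to 5 kept barcodes were shared by any pair of libraries. Gates needed at least 2 UMIs of Csf3r plus Cxcr2, of Ly6c2 plus Fn1 or of C1qa, or at least 1 of Cd3e, Ncr1 or Flt3. Macrophage and monocyte gates met together counted as macrophage, T and NK as T, and DC and monocyte as DC. UMIs were summed per library and class, and no test was run, since each group is 1 library. Shares have exact 95% binomial intervals. A gene was compared with at least 20 UMIs over both libraries and called at a log2 ratio of CPM of at least 0.5 with its interval above 0. Scripts ran in Python 3.11.15 with numpy 2.4.6, scipy 1.17.1 and pandas 2.3.3 and were tested on simulated data. Nuclear copies were searched in GENCODE M21 transcripts (GRCm38), in which 9 of 9 members matched.

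The members, gene lists and gates were chosen with earlier results of these data known. Named genes were the members and other mt- protein genes, the gate genes, the 2 nuclear genes per complex with the largest absolute log2 ratio over all kept cells (not all printed), called genes of mitochondrial expression or biogenesis (up to 5), the 5 genes most like the members over class sums, and markers of other cells that a result turned on. Alternatives changed the filters, gates, weights, scaling and call limits. Counting monocyte gates met with T or NK gates as T or NK, thinning each cell to 1500 UMIs, leaving out neutrophils of 4% and over, and the gate alternatives for class ratios were added after seeing the data.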

Additional observations from a re-analysis of the deposited data

Results flagged for a closer look

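Barcodes under 1500 UMIs were not among the kept cells and in p38KO carried member UMIs above the level of the vehicle library. The 9 members took 15.5% of their summed UMIs in p38KO, against 6.89% in vehicle and 3.16% in p38i. The median such barcode had 1.33%, 0.38% and 0.305% in the same order. Those over the 20% limit were 25.9%, 16.6% and 6.62% of these barcodes, and the 90th percentile in p38KO was 88.4%. The 20% limit removed 2.87% of p38KO cells, against 0.959% in vehicle and 0.519% in p38i.

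The p38i library stood on opposite sides of vehicle in different gated classes. The log2 ratio of the 9 members summed was -0.22 in DC, where each of the 9 was below vehicle, and 0.30 in neutrophils, where each was above. In each of these classes the counting interval left out 0 for 8 of the 9. The difference between the classes was not tested, since each group is 1 library.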

How the results depend on the processing

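The order of p38KO above vehicle held for the library share under every alternative tried. The share in vehicle, p38i and p38KO was 2.31%, 2.24% and 3.75% with no limit, 2.08%, 2.11% and 3.03% with a 10% limit, 2.47%, 2.30% and 4.38% over all barcodes, 1.52%, 1.68% and 2.83% as a mean of cell shares, and 2.19%, 2.19% and 3.35% for all 13 mt- protein genes. The mix and within-class parts of p38KO minus vehicle, in percentage points, were 0.387 and 1.05 with no limit, 0.287 and 0.866 with a gate minimum of 1, 0.321 and 0.832 with minimums of 3 and 2, 0.320 and 0.833 with gates on thinned cells, 0.418 and 0.735 with 8 gates, 0.303 and 0.849 with vehicle weights for the within-class part, 0.360 and 0.793 with p38KO weights for it, 0.249 and 1.06 with cell weights, and 0.309 and 0.844 with classes split by depth.

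The parts of the p38i difference, itself near 0, took either sign. The mix part was -0.00848 with a gate minimum of 1, -0.00886 with minimums of 3 and 2, -0.0218 with gates on thinned cells, 0.0653 with cell weights, 0.0278 with classes split by depth and -0.00336 with monocyte gates met with T or NK gates counted as T or NK. The within-class part was 0.0127, 0.0131, 0.0260, 0.0983, -0.0235 and 0.00759 in the same order, and -0.0646 with no limit.

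The neutrophil log2 ratio of p38KO to vehicle was 1.69 with no limit, 1.44 with a gate minimum of 1, 1.49 with minimums of 3 and 2, 1.57 with gates on thinned cells, 1.54 with each cell thinned and 0.62 without the neutrophils of 4% and over. The p38i ratio changed sign in macrophages with each cell thinned (0.10), in T cells with a gate minimum of 1 (0.0085) and in NK cells with gates on thinned cells (-0.0063). In monocytes, from a main value of 0.0040, it was -0.0165 with a gate minimum of 1 and -0.0112 with minimums of 3 and 2. With gates on thinned cells the monocyte ratio was -0.0177. The cause was not tested. The DC ratios, which rest on 43 vehicle cells, moved with the gates. With minimums of 3 and 2 they were -0.09 in p38i and 0.02 in p38KO, and with gates on thinned cells -0.46 and -0.37. Members called over all kept cells numbered 5 with median-ratio scaling. At a log2 ratio of 1, which fewer values reach by construction, 0 were called over all kept cells, 0 in monocytes and 0 in NK cells (5.88%, 3.94% and 3.01% of all genes), and 8 of 9 in neutrophils (3.87%). Of 108 values of single members in p38KO (over all kept cells, neutrophils, macrophages and NK cells, under scaling alternatives and no limit), 0 changed direction. The p38i ratios near 0 did: with no limit the ratio of the 9 summed was -0.04 over all kept cells and -0.03 in monocytes, and single members, such as mt-Nd4 in macrophages and mt-Nd3 in NK cells, changed sign. No paired analysis was possible because each group holds 1 library and no test was run. Depth limited the genes of mitochondrial expression in neutrophils, where 8 of 17 had enough UMIs to be compared in p38KO.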

Other observations

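Cells with at least 2 UMIs of Cpa3, which met no other gate, numbered 3 in vehicle, 6 in p38i and 72 in p38KO. Their member share was 8.73% (8.18 to 9.32), 5.41% (5.13 to 5.70) and 7.34% (7.24 to 7.43), above that of the other gated classes in each library. Cells gated on Cd79a of B cells, 29, 22 and 10 of them, had 3.89%, 4.37% and 3.78%. Neutrophils without a single member UMI numbered 54, 63 and 26.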
